A study of Mus musculus with 12 samples.

Results

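The genes described here encode 10 antioxidant enzymes and redox proteins: the superoxide dismutases Sod1 and Sod2, catalase (Cat), the glutathione peroxidases Gpx1 and Gpx4, the peroxiredoxins Prdx1, Prdx2, Prdx5 and Prdx6, and thioredoxin (Txn1). They were listed by symbol and matched to Ensembl mouse gene identifiers, and all 10 were present in both count tables, out of 32783 genes listed in at least 1 table. The rule that picks them refers to their symbols and not to their levels, but the list was drawn up with earlier results of these data known. The libraries came from the hippocampus of male C57Bl6/J wild-type mice that received adeno-associated virus of serotype 2/9 in the CA1 area on both sides at 2 months of age and were studied 2 months later, at 4 months. AAV-A2A carried the murine adenosine A2A receptor gene Adora2a, and the control, AAV-GFP, carried eGFP. Both transgenes were driven by the astrocyte-selective promoter GfaABC1D, so every animal carried a vector and no uninjected animal was sequenced in these groups. Cells were captured on magnetic beads, first those bearing the astrocyte surface antigen ACSA-2 and then, from the cells that were not retained, those bearing CD11b, a surface protein of microglia and other myeloid cells. Each of the 4 groups held 3 libraries, named by vector and replicate number: GFP-303, GFP-306, GFP-307, A2A-309, A2A-310 and A2A-313 in the ACSA-2 fraction, and GFP-2328, GFP-2329, GFP-2331, A2A-2343, A2A-2344 and A2A-2347 in the CD11b fraction. The labels do not say whether an ACSA-2 and a CD11b library came from the same animal.

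As background, cells remove reactive oxygen in steps. Superoxide dismutases turn superoxide into hydrogen peroxide, and catalase, glutathione peroxidases and peroxiredoxins then remove the peroxide. Glutathione peroxidases and Prdx6 draw their electrons from glutathione, while Prdx1, Prdx2 and Prdx5 draw theirs from thioredoxin. Astrocytes are known for their large glutathione supply and for feeding its precursors to neurons, and microglia hold a phagocyte NADPH oxidase that makes superoxide.

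The total count on genes ranged from 33937067 to 49217553 per library in the ACSA-2 fraction and from 36098295 to 53206974 in the CD11b fraction, and the lowest count of any of the 10 genes in any library was 469, for Sod1 in A2A-2344. Adora2a counts were 774 to 981 in the AAV-GFP libraries and 27303 to 42668 in the AAV-A2A libraries of the ACSA-2 fraction, and 201 to 318 against 653 to 1529 in the CD11b fraction, so the libraries matched their vector labels. The 8 astrocyte markers (led by Aldoc) summed to 22886 to 36374 CPM (counts after TMM scaling, relative to library size) in the ACSA-2 libraries and to 261 to 513 CPM in the CD11b libraries, and the 8 microglia markers (led by Csf1r in the CD11b libraries) to 256 to 472 and 7105 to 58691 CPM. 3 CD11b libraries stood apart: the 7 choroid plexus markers, led by Ttr, summed to 74070 CPM in GFP-2328, 61355 in GFP-2329 and 29916 in A2A-2347 but to 9.67 to 95.2 CPM in the other 3, and these 3 libraries also had the lowest microglia sums, 7105 to 20211 CPM against 48397 to 58691. In the ACSA-2 fraction the choroid plexus markers summed to 566 to 628 CPM in AAV-GFP and 618 to 1014 CPM in AAV-A2A libraries. The erythrocyte markers, led by Hbb-bs, summed to 1019 to 5993 CPM in the CD11b AAV-GFP libraries. In the CD11b AAV-A2A libraries they summed to 57.3 to 254 CPM. The other lists, led by Snap25 or Slc17a7 for neurons, Cnp for oligodendrocytes, Cldn5 for endothelium, Kcnj8 or Pdgfrb for mural cells, Ccdc153 for ependyma, Pf4 or F13a1 for border macrophages and S100a9 or Ngp for neutrophils and monocytes, summed to 0.120 to 1692 CPM in the ACSA-2 libraries and 3.83 to 1086 CPM in the CD11b libraries. For the 10 genes, 2 kinds of CD11b results are given below with and without the libraries rich in choroid plexus transcripts. These are the fraction comparison in AAV-GFP and the tests of the vector that include the CD11b fraction. The TPM levels, the fraction comparison in AAV-A2A, the correlations and the wider list of related genes are given only with them. In bulk libraries, fewer cells of a type and less RNA per cell cannot be told apart.

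The stretches that encode the reactive residue are shown for the genes that differed most between the fractions and for Gpx4, because these residues define the enzyme families. They were read, 5′ to 3′, from the coding sequence of the GENCODE principal transcripts (GRCm38), and all lie in coding exons. In the first 3, from Prdx6 (chromosome 1 from 161240112 to 161251219, minus strand), Prdx1 (chromosome 4 from 116685544 to 116700822) and Prdx2 (chromosome 8 from 84969587 to 84974834), capitals mark the codon of the cysteine that reacts with the peroxide. In Gpx1 (chromosome 9 from 108338903 to 108340343) and Gpx4 (chromosome 10 from 80047166 to 80056439), capitals mark the TGA codon that is annotated as selenocysteine and not as a stop. In Txn1 (chromosome 4 from 57943373 to 57956411, minus strand), they mark the cysteine, glycine, proline and cysteine codons of the active site.
Prdx6: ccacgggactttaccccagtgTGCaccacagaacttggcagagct
Prdx1: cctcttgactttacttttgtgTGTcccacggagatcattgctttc
Prdx2: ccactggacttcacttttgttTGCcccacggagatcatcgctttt
Gpx1: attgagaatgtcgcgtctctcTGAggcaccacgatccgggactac
Gpx4: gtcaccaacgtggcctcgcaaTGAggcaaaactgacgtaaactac
Txn1: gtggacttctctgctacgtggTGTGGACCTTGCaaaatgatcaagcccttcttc
The marked residue is codon 47 in Prdx6, 52 in Prdx1, 51 in Prdx2, 47 in Gpx1 and 73 in Gpx4, and the Txn1 site begins at codon 32. Prdx1 and Prdx2 were identical at 38 of the 45 bases shown, Prdx6 matched Prdx1 at 23 and Prdx2 at 26, and Gpx1 matched Gpx4 at 25.

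Levels were compared between genes per length, in TPM, the count divided by the length of the union of each gene's exons and scaled to the same total in every library. In the ACSA-2 AAV-GFP libraries Prdx6 led with 2610 ± 14.6 TPM (SD, n = 3), ahead of Prdx1 with 663 ± 67.9. Prdx2 (487 ± 37.0), Prdx5 (470 ± 34.3), Txn1 (465 ± 78.4) and Gpx1 (460 ± 66.3) followed with overlapping ranges, as did Cat (297 ± 54.8) and Gpx4 (250 ± 47.1), and Sod2 (73.5 ± 7.42) and Sod1 (46.6 ± 2.46) were lowest. In the CD11b AAV-GFP libraries the order began with Gpx1 at 1284 ± 477 TPM, whose 3 libraries lay above all those of the other genes. Prdx5 (406 ± 191), Cat (216 ± 55.6), Gpx4 (211 ± 109), Prdx1 (186 ± 51.9), Prdx2 (167 ± 71.2), Txn1 (158 ± 18.8) and Prdx6 (137 ± 48.8) came next, each overlapping its neighbours, and Sod2 (42.3 ± 22.9) and Sod1 (36.6 ± 22.5) were again lowest. By these lengths Prdx6 ranked 1 of 10 in the ACSA-2 fraction and 8 of 10 in the CD11b fraction, in libraries of either vector. By the length of the principal transcript it also ranked 1 in the ACSA-2 fraction, but 5 in the CD11b AAV-GFP and 6 in the CD11b AAV-A2A libraries.

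**Figure D1:**
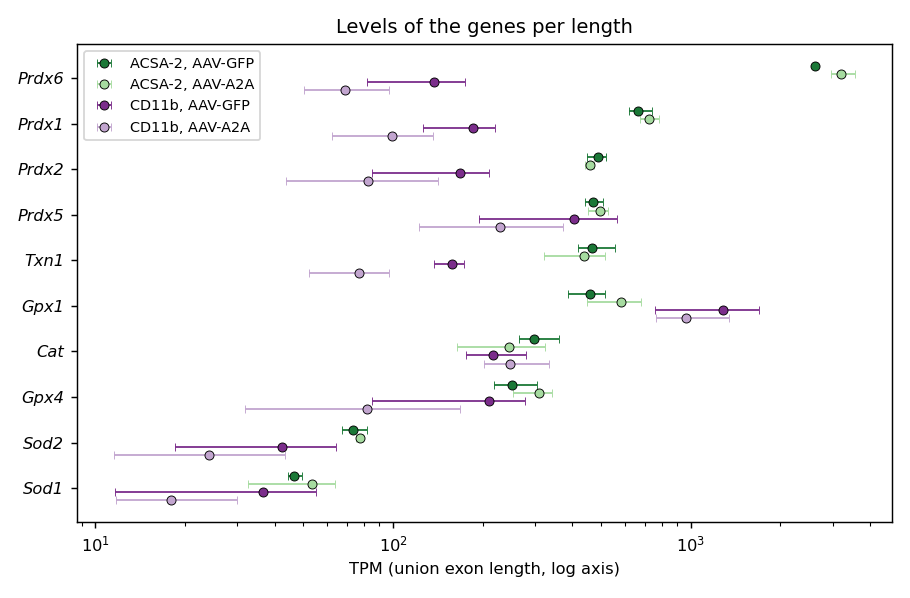
Mean level of each gene in TPM (log axis) in the 4 groups of 3 libraries, with bars from the lowest to the highest library, ordered by the ACSA-2 AAV-GFP mean. Prdx6 led in ACSA-2 libraries (2610 TPM in AAV-GFP) and Gpx1 in CD11b libraries (1284 TPM in AAV-GFP).

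Some of these levels carry counting uncertainty. Of the 50-base windows of the principal transcript, 68.9% of Gpx4, 29.7% of Prdx5, 23.8% of Prdx2, 23.1% of Sod1 and 10.9% of Prdx1 also occurred in transcripts of another gene, such as Gpx4-ps2 and Prdx2-rs3, and such reads cannot be assigned to a single gene. For Prdx5 the other gene was Trmt112, which overlaps 19.1% of its exon sequence on the opposite strand, and Junb and Rnaseh2a overlap 11.5% of Prdx2 on the opposite strand. The strand setting of the counting is not given in the sources used here. The share was 2.495% for Txn1, 1.43% for Sod2, 0.299% for Prdx6 and 0 for Cat and Gpx1. Sod1 is 3970 bases long as the union of its exons and 641 as its principal transcript, and with principal lengths its mean in the ACSA-2 AAV-GFP libraries was 194 TPM, above Sod2 at 84.5.

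The first comparison set the ACSA-2 fraction against the CD11b fraction in the AAV-GFP libraries, to place each gene in the control animals. Prdx6, Prdx1, Prdx2 and Txn1 were higher in the ACSA-2 fraction, Gpx1 was lower, and the other 5 did not pass the test. Calls here are an edgeR quasi-likelihood Benjamini-Hochberg adjusted p under 0.05 over all tested genes with an absolute log2 FC over 0.32, and 26.7% of 17110 tested genes met them, 12.9% as higher and 13.7% as lower in the ACSA-2 fraction. Of the 10 genes, 4 were higher and 1 lower, and their median log2 FC was 0.70 against -0.09 over all tested genes. The fraction, its antibody and its count table go together, so a difference between the cells and one between the preparations cannot be told apart.

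Among the superoxide dismutases, Sod1, the cytosolic copper and zinc enzyme, had 69.0, 68.9 and 60.4 CPM in GFP-303, GFP-306 and GFP-307. In GFP-2328, GFP-2329 and GFP-2331 it had 69.2, 58.5 and 17.6 CPM. The groups overlapped, and the library with few choroid plexus transcripts was the low one (log2 FC 0.45, SE 0.477, edgeR adjusted p = 0.517). Sod2, the mitochondrial manganese enzyme, had 256, 288 and 243 CPM in the ACSA-2 libraries against 203, 152 and 70.9 CPM in the CD11b libraries. These groups did not overlap, as held for 50.7% of all tested genes, and the difference did not pass (log2 FC 0.89, SE 0.394, edgeR adjusted p = 0.138). With GFP-2331 as the only CD11b AAV-GFP library, which was then assumed to vary like the ACSA-2 libraries, the log2 FC was 1.88 for Sod1 and 1.86 for Sod2. That library held fewer choroid plexus transcripts (95.2 CPM) than the ACSA-2 AAV-GFP libraries (566 to 628 CPM), so this content still differed between the fractions.

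Catalase, the peroxisomal enzyme, did not pass the test in the libraries of either vector. It had 262, 244 and 322 CPM in the ACSA-2 libraries and 231, 174 and 176 CPM in the CD11b libraries, without overlap (log2 FC 0.51, 95% interval -0.08 to 1.11, edgeR adjusted p = 0.173). In the AAV-A2A libraries the value was 0.34 (SE 0.365, edgeR adjusted p = 0.474), and with GFP-2331 alone 0.62.

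Gpx1, the selenoenzyme that reduces hydrogen peroxide with glutathione, was the gene that was lower in the ACSA-2 fraction. It had 281, 196 and 235 CPM in the ACSA-2 libraries. The CD11b libraries had 347 CPM in GFP-2328, 690 in GFP-2329 and 936 in GFP-2331, all above the ACSA-2 libraries, and the highest was the one of the 3 with the most microglia transcripts. The log2 FC was -1.47 (SE 0.407, edgeR adjusted p = 0.0380), and -2.01 with GFP-2331 alone. Leaving out any of the ACSA-2 libraries, or GFP-2329, ended the call, with an adjusted p of up to 0.139. Gpx4, the enzyme that reduces lipid hydroperoxides within membranes, had 199, 133 and 134 CPM in the ACSA-2 libraries and 146, 164 and 56.2 CPM in the CD11b libraries. These overlapped (log2 FC 0.35, SE 0.427, edgeR adjusted p = 0.578), and with GFP-2331 alone the log2 FC of Gpx4 was 1.44.

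The peroxiredoxins held the largest differences. Prdx6, which reduces phospholipid hydroperoxides and also has phospholipase activity, had 4743, 4442 and 4266 CPM in the ACSA-2 libraries and 265, 256 and 151 CPM in the CD11b libraries. Its group mean was 20.01-fold higher in the ACSA-2 fraction (log2 FC 4.32, SE 0.385, edgeR adjusted p = 0.000925), the largest of the 10 differences. Prdx6 alone made up 60.04 to 63.0% of the summed counts of the 10 genes in these ACSA-2 libraries and 8.08 to 12.6% in the CD11b libraries. Prdx1, a cytosolic peroxiredoxin, had 854, 663 and 655 CPM against 211, 222 and 147 CPM (log2 FC 1.90, SE 0.293, edgeR adjusted p = 0.00620). Prdx2, its close cytosolic relative and an abundant protein of erythrocytes, had 602, 527 and 467 CPM against 200, 220 and 99.7 CPM (log2 FC 1.62, SE 0.359, edgeR adjusted p = 0.0186). Both pairs of groups lay apart, and for both the lowest library was GFP-2331. The Prdx2 call was lost when any of the ACSA-2 libraries was left out, with an adjusted p of up to 0.0709. Prdx5, which works in mitochondria, peroxisomes and cytosol, had 412, 333 and 337 CPM against 384, 334 and 160 CPM, overlapping (log2 FC 0.30, SE 0.365, edgeR adjusted p = 0.570). With GFP-2331 alone its log2 FC was 1.14.

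Txn1, the thioredoxin from which Prdx1, Prdx2 and Prdx5 draw electrons, had 221, 156 and 151 CPM in the ACSA-2 libraries. The CD11b libraries had 53.9, 62.7 and 55.2 CPM, the narrowest CD11b spread of the 10 genes, and lay below every ACSA-2 library (log2 FC 1.62, SE 0.252, edgeR adjusted p = 0.00642). This value was 1.64 with GFP-2331 alone.

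The same difference in the AAV-A2A libraries, which share no library with the AAV-GFP comparison, called 8 of the 10 genes as higher in the ACSA-2 fraction, beside 21.6% of 16802 tested genes, and none as lower, beside 25.6%. Prdx6 differed by 5.89 on the log2 scale (SE 0.470, edgeR adjusted p = 0.000188), Prdx1 3.17, Prdx2 2.84 and Txn1 2.80. Sod1 (1.93), Sod2 (2.06), Gpx4 (2.33) and Prdx5 (1.46), which had not passed in the AAV-GFP libraries, also passed. Gpx1 was not called there (log2 FC -0.51, SE 0.444, edgeR adjusted p = 0.371), with 762 CPM in A2A-2343 but 327 and 294 CPM in A2A-2344 and A2A-2347 against 251 to 364 CPM in the ACSA-2 libraries. The microglia markers summed to 58691 CPM in A2A-2343, 48397 in A2A-2344 and 20211 in A2A-2347. With GFP-2331 as the only CD11b AAV-GFP library, the log2 FC was positive for every gene but Gpx1.

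**Figure D2:**
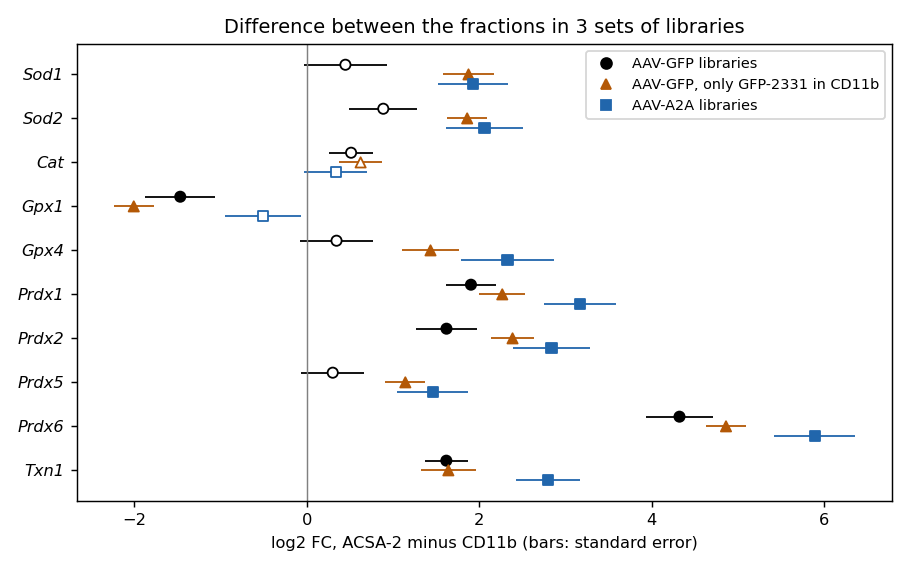
Fitted log2 FC of each gene, ACSA-2 minus CD11b, with its standard error, in all 6 AAV-GFP libraries, in those with GFP-2331 as the only CD11b library, and in the 6 AAV-A2A libraries. Filled symbols are called, which with GFP-2331 alone rests on the spread of the ACSA-2 libraries. Prdx6 lay furthest right in each set (4.32, 4.86 and 5.89), with Gpx1 the only gene left of 0.

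The second comparison asked whether the genes differed between AAV-A2A and AAV-GFP animals in the ACSA-2 fraction. None of the 10 was called, beside 3.36% of 16451 tested genes (553 genes, 29 or 0.176% higher and 524 or 3.19% lower), and none had an unadjusted p under 0.05, beside 13% of tested genes. DESeq2 and limma-voom also called none of them, beside 6.51% and 3.64% of tested genes. The log2 FC was positive for 8 of the 10, with a median of 0.19 against 0.02 over all tested genes. Prdx6 had 5270, 5264 and 6679 CPM in A2A-309, A2A-310 and A2A-313 against 4266 to 4743 CPM in the AAV-GFP libraries. It was the single gene of the 10 whose groups did not overlap, beside 7.84% of tested genes in that direction and 19.4% in either, and its log2 FC came to 0.39 (95% interval -0.01 to 0.78, edgeR adjusted p = 0.400). Gpx1 had 323, 364 and 251 CPM against 196 to 281 CPM (log2 FC 0.42, 95% interval -0.02 to 0.87, edgeR adjusted p = 0.416), and Gpx4 had 206, 218 and 169 CPM against 133 to 199 CPM (log2 FC 0.38, adjusted p = 0.509). Both overlapped their controls. Sod1 had 91.0, 93.4 and 50.2 CPM (log2 FC 0.27, edgeR adjusted p = 0.760), with A2A-313 below every control and the other two above. Cat spread most, from 159 CPM in A2A-310 to 330 in A2A-313 (log2 FC -0.17, adjusted p = 0.891), and its sign turned to 0.063 without A2A-310.

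Prdx1 (740 to 924 CPM, log2 FC 0.21), Sod2 (269 to 304 CPM, 0.17) and Prdx5 (377 to 418 CPM, 0.16) had edgeR adjusted p values of 0.740 to 0.782. Prdx2 (485 to 543 CPM) and Txn1 (131 to 195 CPM) had log2 FC of 0.000776 and -0.01, whose signs changed between settings. The 95% intervals of the 10 genes reached from -0.75, for Cat, to 0.87, for Gpx1. The narrower ones were those of Sod2, from -0.19 to 0.53, Prdx5, from -0.20 to 0.53, and Prdx2, from -0.37 to 0.38. With the offset for length and GC content, Prdx1 was at 0.032, Sod2 at 0.31, Cat at -0.27 and Txn1 at -0.31, and none was called. The endothelial markers summed to 363 to 423 CPM in the AAV-GFP and 196 to 344 CPM in the AAV-A2A libraries, and their part in these values was not tested. Summed over the 10 genes, the share of a library's raw counts was 0.690 to 0.752% in AAV-GFP and 0.864 to 0.914% in AAV-A2A libraries. Prdx6, which was not called, was 63.2 to 68.4% of that sum in AAV-A2A. These shares are without TMM scaling, and their difference was not tested.

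**Figure D3:**
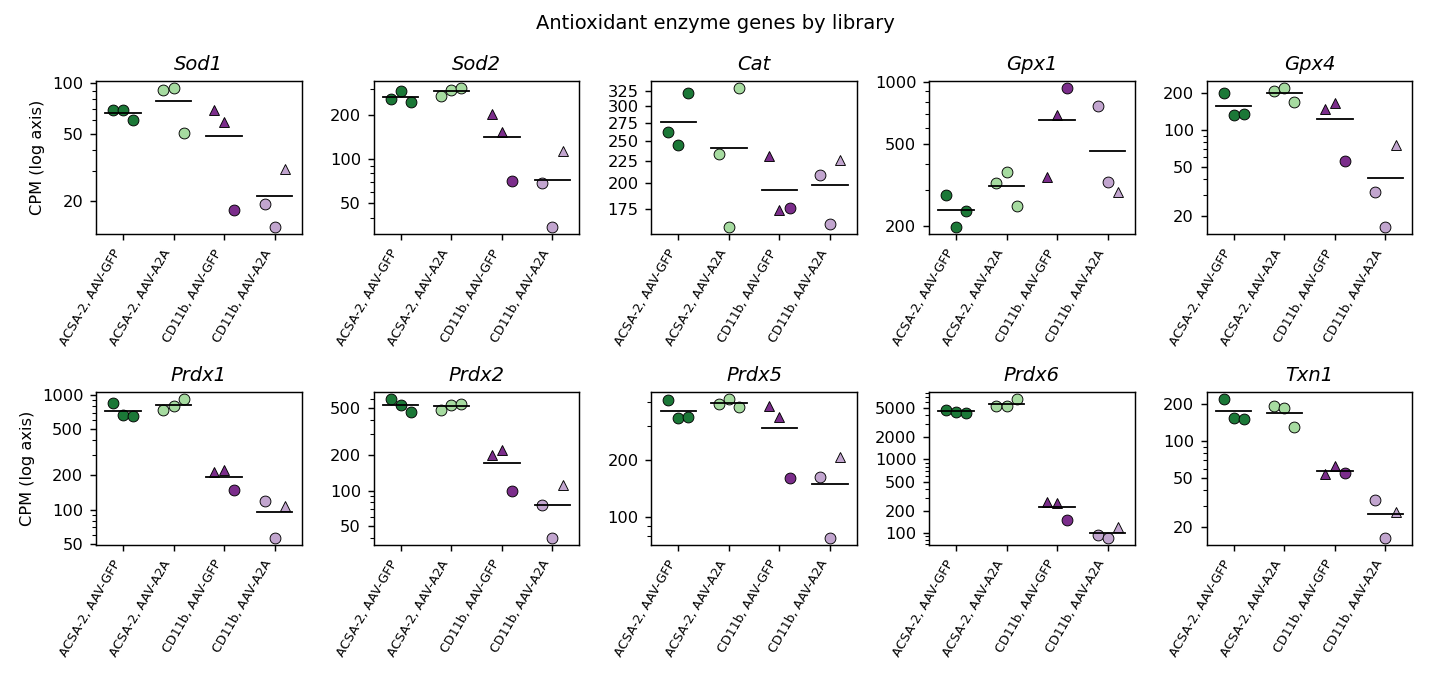
CPM of the 10 genes (log axes that differ between panels) in each of the 12 libraries, with a bar at the group mean and triangles for the 3 CD11b libraries rich in choroid plexus transcripts. The ACSA-2 groups overlap for every gene but Prdx6, and in the CD11b fraction Prdx1, Prdx6 and Txn1 have their AAV-GFP libraries above their AAV-A2A libraries.

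The third comparison asked the same question in the CD11b fraction, sorted from hippocampus injected in the same way. This fraction is not the cell type that the promoter is meant for. No gene passed there: 0% of 16949 tested genes, and none of the 10, were called, while 16% of tested genes had an unadjusted p under 0.05. For 9 of the 10 genes the value was negative, with a median log2 FC of -1.12 against -0.05 over all tested genes. Txn1 had 33.6, 16.3 and 26.5 CPM in A2A-2343, A2A-2344 and A2A-2347 against 53.9 to 62.7 CPM in the AAV-GFP libraries (log2 FC -1.19, SE 0.338, unadjusted p = 0.0101, edgeR adjusted p = 0.280). With an offset for gene length and GC content this value was -0.34 (edgeR adjusted p = 0.722). Prdx6 had 95.2, 85.2 and 121 CPM against 151 to 265 CPM (log2 FC -1.18, SE 0.380, unadjusted p = 0.0180, edgeR adjusted p = 0.280). Prdx1 had 120, 56.3 and 108 CPM against 147 to 222 CPM (log2 FC -1.05, SE 0.406, unadjusted p = 0.0366, edgeR adjusted p = 0.295). In these 3 genes every AAV-A2A library lay below every AAV-GFP library, as in 10.5% of tested genes; the groups of 22.4% did not overlap in either direction. DESeq2 called Txn1 (log2 FC -1.22, DESeq2 adjusted p = 0.0463) beside 4.71% of tested genes, and called none of the other 9. With the offset, Prdx6 was at -1.25, Prdx1 at -0.72 and Prdx5 at -0.60, and none of the 10 was called.

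The other genes overlapped between the vectors. Gpx4 had 31.3, 16.3 and 75.2 CPM against 146, 164 and 56.2 CPM (log2 FC -1.57, 95% interval -3.25 to 0.11, edgeR adjusted p = 0.336). Sod1, Prdx2, Prdx5 and Sod2 had log2 FC of -1.21, -1.20, -0.99 and -0.98 with edgeR adjusted p values of 0.332 to 0.446. Gpx1 had a log2 FC of -0.54 (adjusted p = 0.648) and Cat 0.02 (adjusted p = 0.982). The coefficient of variation between libraries of a group had a median of 42.6% over the 10 genes in CD11b AAV-A2A and 38.7% in CD11b AAV-GFP, against 13.5% and 13.7% in the ACSA-2 groups.

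The order of the libraries was set beside their choroid plexus transcripts. GFP-2331 was the lowest of the 3 AAV-GFP libraries for 7 of the 10 genes, beside 41.1% of tested genes, and A2A-2347 the highest of the 3 AAV-A2A libraries for 7, beside 31.9%. Sod1, Sod2, Gpx4, Prdx2, Prdx5 and Prdx6 were in both sets, and Gpx1 and Txn1 were in neither. Without GFP-2328, GFP-2329 and A2A-2347, 1 library against 2 remained and the lone library was assumed to vary like the pair. The log2 FC was then -0.12 for Sod1, -0.48 for Sod2, -0.43 for Prdx5, -0.76 for Prdx6, -0.76 for Prdx1 and -0.81 for Prdx2, all nearer to 0 than with all 6 libraries. That of Gpx4 went from -1.57 to -1.26, also nearer to 0. The log2 FC of Txn1 was -1.17, against -1.19 with all 6 libraries. Those of Cat and Gpx1 were further from 0, at 0.05 and -0.80. No gene of the 10 was called (edgeR adjusted p = 1.00 for each), beside 0.0173% of 17362 tested genes. Other marker sums also differed between the vectors in this fraction without overlap: neuron markers were at 13.7 to 94.9 CPM in AAV-GFP and 3.83 to 6.75 in AAV-A2A, ependymal markers at 169 to 314 and 33.7 to 67.6, and endothelial markers at 437 to 1086 and 242 to 339. The part of these, of the choroid plexus or of the erythrocyte transcripts in the differences was not tested.

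**Figure D4:**
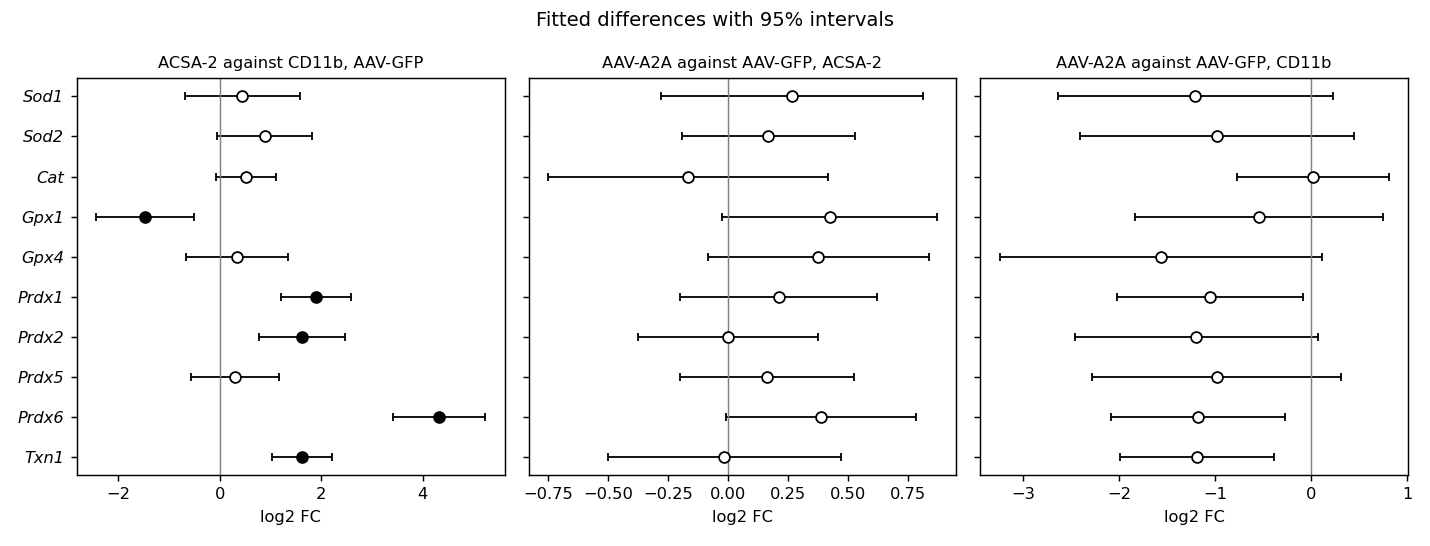
Fitted log2 FC with 95% intervals for the 10 genes in the fraction comparison and in AAV-A2A against AAV-GFP in each fraction (x axes differ between panels); filled points are called. The called genes are the 5 of the first panel, and in the CD11b panel 9 of 10 values lie below 0, with intervals that exclude 0 for Prdx1, Prdx6 and Txn1.

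Whether the vector's difference itself was unlike between the fractions was tested as an interaction over all 12 libraries. None of the 10 genes was called, beside 0.39% of 18995 tested genes, and 5 had an unadjusted p under 0.05, beside 19.2%. Prdx6 had the smallest p (difference of log2 FC 1.51, 95% interval 0.54 to 2.48, edgeR adjusted p = 0.114), and the largest value was that of Gpx4 (1.93, adjusted p = 0.183). The value was positive for 9 genes and -0.24 for Cat. DESeq2 called Prdx6 (1.60, DESeq2 adjusted p = 0.00376) beside 8.2% of tested genes. Without GFP-2331 edgeR called Prdx6 (1.72, adjusted p = 0.0300) and Sod1 (1.82, adjusted p = 0.0489) beside 6.24% of tested genes. Without the 3 libraries rich in choroid plexus transcripts it called neither, and the values were 1.09 for Prdx6 and 0.33 for Sod1. With the offset for length and GC content the value of Txn1 went from 1.13 to 0.0998, that of Prdx1 from 1.21 to 0.71 and that of Gpx1 from 0.91 to 0.34, while Prdx6 was at 1.69, and none was called.

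A wider list of 85 genes of the antioxidant system and of oxidant sources placed the 10 genes among their partners. Between the fractions 80 of them were tested, 20 were higher and 12 lower in the ACSA-2 fraction, beside 12.9% higher and 13.7% lower of all tested genes, to which the counts of each list below also compare. Of 18 glutathione transferase genes, which conjugate glutathione to electrophiles, 9 were higher and none lower. Gstm1 had 4310 ± 558 CPM against 134 ± 38.8 (SD, n = 3; log2 FC 5.01, edgeR adjusted p = 0.000638), and Gstm5 had a log2 FC of 5.03, Gstk1 2.27 and Gstp1 1.59. Members of the Gstm family are similar in sequence, so their single counts are uncertain. Of the genes that supply and recycle glutathione 3 of 9 were higher, among them Slc7a11, the cystine carrier (3.90), and Gclm, the regulatory subunit of the enzyme that begins glutathione synthesis (1.65). Glrx2, a mitochondrial glutaredoxin, was also higher (1.86). All 5 called genes of the list of oxidant sources were lower in the ACSA-2 fraction, including the NADPH oxidase subunit Ncf1 (log2 FC -6.53, edgeR adjusted p = 0.00523), and 4 of 15 genes of the Nrf2 list, a pathway that turns on antioxidant genes, were lower and none higher, with Mafk at -2.35 and Hmox1, heme oxygenase, at -2.07.

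Between the vectors, 1 of the 80 tested genes of the wider list was called in the ACSA-2 fraction, beside 3.36% of all tested genes: Msrb3, a methionine sulfoxide reductase, fell from 29.1 ± 10.1 to 7.68 ± 3.40 CPM (SD, n = 3; log2 FC -1.90, SE 0.395, edgeR adjusted p = 0.0301). In the CD11b fraction none of 80 was called, and 1 had an unadjusted p under 0.05 as higher and 11 as lower, a share near the 16% of all tested genes. Among those over 5 CPM, the 2 largest positive values were those of Cybb, the catalytic subunit of the phagocyte NADPH oxidase (1.82, edgeR adjusted p = 0.280), and Txnip, an inhibitor of thioredoxin (1.01, adjusted p = 0.448). The 2 largest negative ones were those of Gpx8 (-2.01, edgeR adjusted p = 0.432) and Gsta4 (-1.93, adjusted p = 0.483). Cybb did not overlap between the vectors, as held for 22.4% of tested genes in either direction. It ranged from 11.3 to 42.4 CPM in AAV-GFP and 52.4 to 97.1 in AAV-A2A. Txnip, Gpx8 and Gsta4 overlapped. Gpx8 ranged from 16.9 to 177 CPM in AAV-GFP and 7.95 to 69.1 in AAV-A2A. Gsta4 ranged from 17.1 to 218 CPM and 7.19 to 92.5. In the interaction none of 81 was called. The outermost values over 5 CPM were those of Gsta4 and Gpx8 (both 2.24), Ncf1 (-2.67) and Xdh (-1.94), with edgeR adjusted p values of 0.145 to 0.386.

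Across the 12 libraries, with each fraction's mean subtracted from log2 CPM, Sod1, Sod2, Gpx4, Prdx1, Prdx2, Prdx5, Prdx6 and Txn1 varied together, with Pearson r from 0.65 to 0.97 for each pair. Cat and Gpx1 stood apart, with r from -0.39 to 0.27 and from -0.39 to 0.58 with the other genes. The points share their libraries and their choroid plexus content, and the difference between the vectors was left in. The CD11b libraries varied more than the ACSA-2 libraries and so weigh more in r. No r within a fraction alone was computed. Among 5192 genes, the one most like each was Ndufa13 for Prdx5 (r = 0.995), Mdh1 for Sod2 (0.994), Uqcrq for Gpx4 (0.991), Ggh for Prdx2 (0.990), Pfdn5 for Txn1 (0.988), Ndufa8 for Prdx1 (0.988), Tmsb4x for Gpx1 (0.979), Ift43 for Sod1 (0.974), Gadd45g for Prdx6 (0.969) and Ap2m1 for Cat (0.918). In promoter windows from RefSeq (GRCm38.p6, 250 bases before to 50 after the start site), the antioxidant response element core TGACNNNGC was searched on both strands. Prdx6 had no window and was not searched. Of the 9 genes with a window the core occurred in those of Sod1, at position -56, and Prdx1, at position -133, while 14.0% of 27025 genes had it in at least 1 window.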

How the data were processed

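RNA of ACSA-2 and CD11b fractions was sequenced from full-length cDNA without molecular identifiers (12 libraries), so intervals cover counting error only where they rest on counts. Per the labels, the authors trimmed reads with cutadapt 1.10, aligned them to mm10 with STAR 2.5.3 and deposited raw counts per Ensembl gene from HTSeq 0.6.1p1 (27866 and 30359 genes). Symbols, lengths and transcripts were those of GENCODE for GRCm38. Tests used edgeR 4.0.16 (TMM, filterByExpr, robust quasi-likelihood) in R 4.3.3, and each fraction was fitted alone for the vector. The paper's thresholds were kept. CPM were scaled by TMM over the 12 libraries. Alternatives were DESeq2 1.42.0, limma-voom (limma 3.58.1), other scalings, filters and thresholds, an offset for length and GC content, and each library left out. Scripts were tested on simulated data. Named were the 10 genes, of the wider list those called (at most 10 per comparison) or else the 2 largest values either way over 5 CPM, the leading marker of each list, the gene most correlated with each (at least 20 CPM in both fractions) and Adora2a. The genes and lists were chosen with earlier results of these data known. The study describes 3 animals per group, but the labels do not tie libraries to animals, and p-values measure the spread between these libraries.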

Additional observations from a re-analysis of the deposited data

How the results depend on the processing

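The groups held 3 libraries each, and the CD11b libraries differed in choroid plexus content; whether depth or the number of libraries limited the calls was not tested. None of the 10 genes was called between the vectors in the ACSA-2 fraction under any alternative run. In the ACSA-2 fraction all tested genes called were 553, or 1071 with DESeq2 and 146 in a fit of all 12 libraries (272 to 448 with 1 library left out, the fewest without GFP-306). In the CD11b fraction they were 0, or 798 with DESeq2 (with 1 of the 10 genes, Txn1) and 3 without the 3 choroid plexus rich libraries, an alternative chosen after seeing the data. With any 1 library left out they were 0. Between the fractions 4561 genes were called, or 7929 in the AAV-A2A libraries (1977 to 6168 with 1 library left out). These were 1977 to 2313 without 1 of the ACSA-2 libraries, 2144 without GFP-2329 and 6168 without GFP-2331. Of the 10 genes 5 were called, or 6 with the offset for length and GC content (Sod2 was added), 8 in the AAV-A2A libraries, 9 with GFP-2331 as the only CD11b AAV-GFP library, and 3 to 5 with 1 library left out. For the interaction 74 genes were called, or 1558 with DESeq2 (with 1 of the 10 genes), 167 without a filter, 345 with at least 10 counts in every library, and 0 with RLE or upper-quartile scaling, with the offset, or without the 3 libraries (0 to 1253 with 1 library left out, and 0 to 2 of the 10 genes). The 1253 were without GFP-2331, 804 were called without A2A-2343, 41 without A2A-309, 1 without A2A-2344 and 0 without any other. The cause of these differences was not tested.

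Signs turned for 5 of the 10 genes, in uncalled values only. In the ACSA-2 fraction the log2 FC of Txn1 was 0.088 with upper-quartile scaling, and with 1 library left out it ran from -0.12 to 0.16. That of Prdx2 was -0.0054 without a filter, -0.026 with the offset and -0.029 in the fit of all libraries, and ran from -0.093 to 0.078 with 1 library left out, where that of Cat ran from -0.48 to 0.063. In the CD11b fraction that of Cat was -0.014 with DESeq2 or RLE scaling, -0.15 with upper-quartile scaling and -0.068 with at least 10 counts in every library, and ran from -0.14 to 0.20 with 1 library left out. That of Gpx1 was 0.038 there with the offset. Between the fractions that of Gpx4 ran from -0.0012 to 0.61 with 1 library left out, the lowest without GFP-2331. In the interaction that of Cat was 0.068 with upper-quartile scaling and ran from -0.54 to 0.014 with 1 library left out. No paired analysis was possible, because the labels do not say whether an ACSA-2 and a CD11b library came from the same animal. The tests that span both fractions treated all libraries as independent.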
